A study of Mus musculus with 9 samples.

Results

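This account follows 9 genes whose level in the olfactory mucosa after 2 weeks of dexamethasone lay apart from its level both in saline controls and after 1 day of the drug. They were picked by symbol because their values on the 2-week arrays stood out in those comparisons, and they make up 9 of the 19084 genes with a named probe, read by 11 of 26423 probes. The genes are Wdfy1, Cys1, Tspan4 and Safb2, which lay lower after 2 weeks, and Btg4, Cgref1, Eda2r, Asz1 and Ly6g6d, which lay higher. Because the comparisons with the 2-week group chose them, their values there are given as a description, with no test.

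The animals were wild-type male C57BL/6 mice, 6 to 8 weeks old, with no transgene and no other treatment named, and the labels give no substrain. Controls (control) were injected with saline for 2 weeks, the short-term group (D1) with dexamethasone for 1 day, and the long-term group (WK2) with dexamethasone each day for 2 weeks. The intraperitoneal route and the dose of 1 mg/kg are given beside the long-term group only. Dexamethasone is a synthetic agonist of the glucocorticoid receptor. There were 9 mice in each group, 27 in all, and 3 olfactory samples per group went onto single-colour arrays after selection for high expression of olfactory marker protein, so that the arrays are no random draw from the animals. Nothing says that the 3 samples of a group are separate animals, so the spread between them may be technical. Injections ran for 2 weeks in the controls and for 1 day in D1, so drug and length of injection cannot be told apart between those groups.

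The 9 genes belong to unrelated families. Glucocorticoids act through a receptor that enters the nucleus on binding the hormone and raises or lowers transcription of its target genes, and adrenal glucocorticoids also help to set the timing of circadian clocks in peripheral tissues. The olfactory mucosa holds olfactory sensory neurons, supporting cells, basal stem cells, glands and, at its edges, ciliated respiratory epithelium, over a bed of connective tissue, bone and cartilage. A bulk sample sums them all, so fewer cells of a type and less RNA per cell cannot be told apart in any value below.

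The arrays had medians of 1202 to 1447 in intensity over all probes, and arrays of 1 group correlated at r = 0.977 to 0.993 across features. No measured marker of the listed cell types was at 0 on any array, although 4 of 6 erythroid markers had no named probe. The summed intensity of 6 mature olfactory neuron markers was 850797 to 987575 in control, 742049 to 1057284 in D1 and 994947 to 1092434 in WK2. Omp made up the largest share of that sum, and 3 of the 6 (Adcy3, Gnal and Stoml3) lay below control in WK2 by group mean. The sum of 4 supporting-cell markers was 791070 to 911888, 881757 to 1032295 and 990652 to 1228294. The 7 neutrophil markers summed to 160169 to 394246, 244473 to 667159 and 330465 to 464898, and the 5 markers of ciliated respiratory cells to 61640 to 68482, 60807 to 68058 and 68969 to 92998. On each array the deposited values were whole multiples of a constant step, which was 0.685 to 0.905 in control, 0.870 to 1.18 in D1 and 1.21 to 1.34 in WK2. The step of the WK2 arrays thus lay above that of all others, and its part in the results was not tested.

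On the probe that stands for each gene, the 3 WK2 arrays lay outside the range of all 6 other arrays for 9 of the 9 genes. That holds for 5156 of 23631 features, or 21.8% of the table, with 12.8% above and 9.05% below, and the choice of genes fixes it here. In the limma fit over all features 1.61% were past an adjusted p of 0.05 for WK2 against control, 102 higher (0.432%) and 278 lower (1.18%), and 0.0931% against D1, 7 higher (0.0296%) and 15 lower (0.0635%). The count against control ran from 1 (without WK2 replicate 2) to 953 (without WK2 replicate 1) when an array was left out. After median centring of the arrays the splits were 221 higher and 1324 lower, and 10 higher and 40 lower. After quantile normalization 15 were higher and 60 lower against D1. Both comparisons use the same WK2 arrays.

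The median difference over all features was 0.14 on the log2 scale for WK2 against control, 0.10 for WK2 against D1 and 0.03 for D1 against control. Values below are as deposited, and differences are on the scale of log2(intensity + 50), which understates the change of dim genes. With each array centred on its median the differences from control ran from 0.59 for Cgref1 to 1.87 for Asz1 among the higher genes, and from -1.23 for Tspan4 to -2.34 for Wdfy1 among the lower ones.

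**Figure D1:**
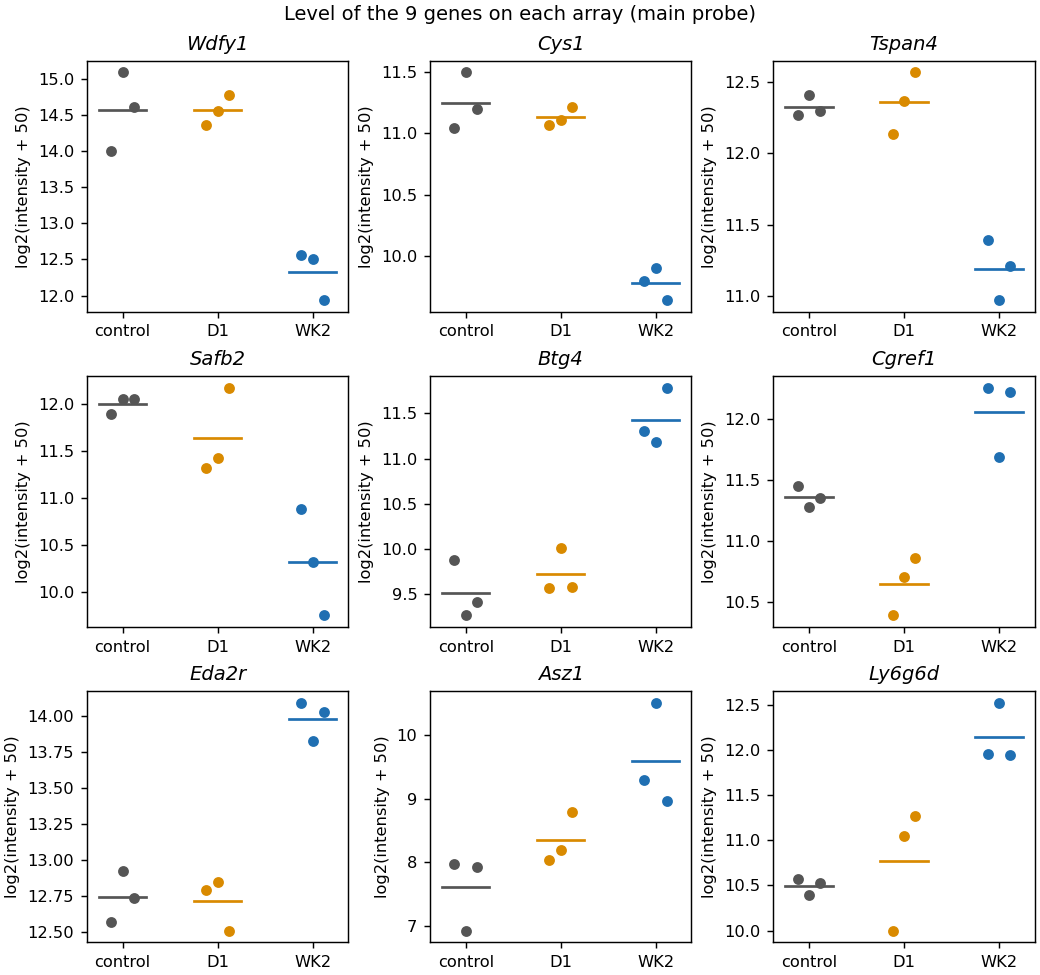
Level of each of the 9 genes as log2(intensity + 50) on its main probe (vertical axis), by group; points are the 3 arrays of a group and bars their mean. The WK2 points lie below all others for Wdfy1, Cys1, Tspan4 and Safb2 and above all others for the other 5 genes, by 0.16 (Asz1) to 1.44 (Wdfy1) between the nearest points.

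Sequences before annotated starts are shown for the genes whose window held a motif of the glucocorticoid receptor or of the clock. The treatment acts on the former. As for the clock, the gene most like Wdfy1 and Cys1 in profile was Tef and that most like Tspan4 was Per2, while other members had other top matches, as given below. RefSeq's table for GRCm38.p6 held windows for 8 of the 9 genes, 12 windows in all, each the 250 bases before an annotated start. They were searched on both strands for the palindromic glucocorticoid response element, which is AGAACA, any 3 bases and then TGTTCT, for its single arm AGAACA, for the E-box CACGTG bound by the clock activators and for the D-box TTATGTAA bound by Dbp and Tef. The arm is part of the full element. Windows on a single chromosome, which holds none of the 9 genes, were left out of all counts. The full element was in 0 of the 12 windows and in 0.00913% of all 32851 windows searched, and the D-box in 0 of the 12 and in 0.819% of all. The E-box was in 2 of the 12, of Cgref1 and Tspan4, and in 6.02% of all, and the single arm in 2 of the 12, of Btg4 and Ly6g6d, and in 16.1% of all. A match is a description of letters only. In the 4 windows below, written 5′ to 3′ on the gene's strand, capitals mark the match.
Cgref1, chr5:30945428-30945677, minus strand: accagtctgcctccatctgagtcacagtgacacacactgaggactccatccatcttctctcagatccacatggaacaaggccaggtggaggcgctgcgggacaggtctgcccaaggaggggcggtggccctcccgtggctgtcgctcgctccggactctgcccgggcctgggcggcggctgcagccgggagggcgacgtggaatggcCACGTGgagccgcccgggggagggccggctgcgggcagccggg
Tspan4, chr7:141476130-141476379, plus strand: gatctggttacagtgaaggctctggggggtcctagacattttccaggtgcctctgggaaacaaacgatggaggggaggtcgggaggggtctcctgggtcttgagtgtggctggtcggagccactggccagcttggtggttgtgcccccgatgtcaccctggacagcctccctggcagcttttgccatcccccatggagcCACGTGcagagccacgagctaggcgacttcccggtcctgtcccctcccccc
Btg4, chr9:51115751-51116000, plus strand: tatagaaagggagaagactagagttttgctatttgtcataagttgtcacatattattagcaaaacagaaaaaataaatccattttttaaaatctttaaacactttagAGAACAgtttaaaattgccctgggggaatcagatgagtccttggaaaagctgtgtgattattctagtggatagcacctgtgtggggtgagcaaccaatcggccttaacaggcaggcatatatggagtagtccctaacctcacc
Ly6g6d, chr17:35081240-35081489, minus strand: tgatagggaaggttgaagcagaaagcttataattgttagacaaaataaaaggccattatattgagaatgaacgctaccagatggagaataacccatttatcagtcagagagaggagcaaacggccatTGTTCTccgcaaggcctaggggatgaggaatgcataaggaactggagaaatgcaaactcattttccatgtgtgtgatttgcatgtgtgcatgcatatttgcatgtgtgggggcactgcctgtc
The E-box began 43 bases before an annotated start of Cgref1 and 51 bases before one of Tspan4. Both starts lie inside the gene's span, which is 30933143 to 30945480 for Cgref1 and 141475236 to 141493427 for Tspan4. These E-boxes lie within the spans and not upstream of them. The arm began 143 bases before an annotated start of Btg4 that also lies inside the gene's span, from 51102147 to 51119924. As TGTTCT on the other strand, it began 123 bases before the outermost start of Ly6g6d. Cgref1 and Tspan4 each had another annotated start, at the outer end of the span, and Ly6g6d had 2 others, further inside. The windows of these other starts held no match.

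Wdfy1 lay lower in WK2 on both of its probes, by unequal amounts. It encodes a protein with WD40 repeats and a FYVE domain that binds phosphatidylinositol 3-phosphate on early endosomes, and it has been described as an adaptor in signalling by the Toll-like receptors TLR3 and TLR4. Its brighter probe gave intensities of 16308, 34808 and 25059 in control replicates 1, 2 and 3, of 21059, 24142 and 27940 in D1 and of 5974, 5788 and 3861 in WK2. The control arrays spread more widely than the D1 arrays and enclose them, and the WK2 arrays lie far below both. WK2 was 4.70-fold below control (log2 difference -2.23 ± 0.28, SE, n = 3 per group) and 4.70-fold below D1 (-2.23 ± 0.28). In rank among all probes the gene went from percentile 93.7 in control to 72.5 in WK2.

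A second, dimmer probe of Wdfy1 showed a smaller difference. It read 2394, 3963 and 2125 in control, 1867, 2923 and 3044 in D1 and 1656, 1831 and 1467 in WK2. Its WK2 arrays also lay below all others, but only by 0.03 on the log2 scale, against 1.44 on the brighter probe. The difference from control was -0.71 ± 0.26 and that from D1 -0.62 ± 0.26. Averaging both probes gave -1.47 and -1.43.

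Transcript levels of Wdfy1 are known to differ between C57BL/6 substrains, as are those of Nnt, a mitochondrial transhydrogenase, and Ide, insulin-degrading enzyme. Nnt read 682, 304 and 482 in control, 425, 695 and 712 in D1 and 921, 1104 and 907 in WK2, so that its WK2 arrays lay above the others. Its difference from control was 0.99 ± 0.27 and did not pass the test (adjusted p = 0.0691, limma). Ide read 9670 to 10473 in control, 8529 to 10525 in D1 and 9601 to 15808 in WK2, which overlap, with a difference of 0.25 ± 0.19 (adjusted p = 0.381, limma). Entpd4, another such gene, had no named probe. A part of substrain in the level of Wdfy1 was not tested.

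Cys1 encodes cystin, a lipid-anchored protein of the primary cilium whose loss causes polycystic kidney disease in the cpk mouse. Its brighter probe gave 2057, 2833 and 2299 in control, 2098, 2152 and 2322 in D1 and 842, 909 and 749 in WK2. Control and D1 arrays overlapped, with D1 inside the range of control, and all WK2 arrays lay below them by at least 1.14 on the log2 scale. WK2 was 2.75-fold below control (-1.46 ± 0.16) and 2.54-fold below D1 (-1.35 ± 0.16).

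Unlike those of Wdfy1, the probes of Cys1 gave nearly the same level and difference. The dimmer probe read 1874, 2673 and 2385 in control, 1940, 2101 and 1842 in D1 and 709, 895 and 878 in WK2. Its differences were -1.42 ± 0.17 from control and -1.20 ± 0.17 from D1. On both probes control replicate 2 was the highest array, as it was on both probes of Wdfy1.

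**Figure D2:**
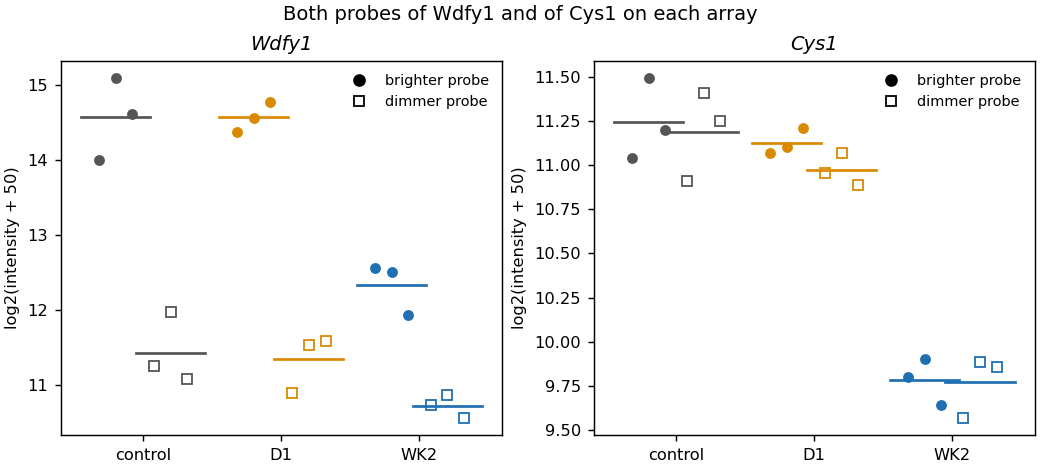
Both probes of Wdfy1 (left) and Cys1 (right) as log2(intensity + 50) on each array (vertical axis), by group; filled circles are the brighter probe, open squares the dimmer one, bars the group mean. The Cys1 probes coincide, while the dimmer Wdfy1 probe differs by -0.71 between WK2 and control where the brighter one differs by -2.23.

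Tspan4 encodes a tetraspanin, a family of membrane proteins with 4 spanning segments, and is known as a component of migrasomes, the vesicles left behind by migrating cells. It read 4889, 5385 and 4975 in control, 4449, 5236 and 6008 in D1 and 2642, 1958 and 2318 in WK2. D1 replicate 1 lay below and D1 replicate 3 above the range of the controls, D1 replicate 2 lay inside it, and the WK2 arrays lay below both groups. The gene was 2.19-fold below control (-1.13 ± 0.17) and 2.24-fold below D1 (-1.16 ± 0.17). It was measured by 1 probe, as were all genes here except Wdfy1 and Cys1.

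Safb2 encodes scaffold attachment factor B2, a nuclear protein that binds scaffold attachment regions of DNA and RNA and represses transcription. It read 3757, 4188 and 4197 in control, 2508, 2690 and 4563 in D1 and 1837, 1227 and 811 in WK2. D1 replicate 3 was above all controls and the other D1 arrays below them, so that the groups control and D1 overlapped. WK2 lay 3.21-fold below control (-1.68 ± 0.30) and 2.50-fold below D1 (-1.32 ± 0.30), with the widest spread within WK2 among the lower genes (SD 0.57 on the log2 scale).

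Eda2r lay higher in WK2. It encodes a receptor of the tumour necrosis factor receptor superfamily that binds the A2 form of ectodysplasin, and it is a known transcriptional target of p53. It read 6019, 7695 and 6759 in control, 7025, 7311 and 5773 in D1 and 17391, 14441 and 16607 in WK2. Control and D1 overlapped, and the WK2 arrays stood together above them, with an SD of 0.14 on the log2 scale. The gene was 2.36-fold above control (1.24 ± 0.16) and 2.40-fold above D1 (1.26 ± 0.16), from percentile 76.5 of all probes in control to 89.1 in WK2.

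Btg4 belongs to the BTG/TOB family of antiproliferative proteins and in oocytes links the CCR4-NOT deadenylase to maternal mRNAs that are then cleared. It read 888, 565 and 629 in control, 710, 983 and 717 in D1 and 2474, 2278 and 3481 in WK2. Control and D1 overlapped, and the lowest WK2 array was 1.17 above the highest of the others on the log2 scale. WK2 was 3.76-fold above control (1.91 ± 0.22) and 3.25-fold above D1 (1.70 ± 0.22).

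Ly6g6d encodes a GPI-anchored protein of the LY6/uPAR family, from a cluster of such genes in the MHC class III region. It read 1474, 1290 and 1427 in control, 974, 2065 and 2408 in D1 and 3911, 5839 and 3874 in WK2. The D1 arrays spread widely, 1 below and the others above all controls, while the controls lay close together. WK2 was 3.12-fold above control (1.64 ± 0.30) and 2.58-fold above D1 (1.37 ± 0.30).

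Asz1 was read by a dim probe, at percentile 18.6 of all probes in control. It encodes an ankyrin-repeat protein of germ cells that takes part in the piRNA pathway, which silences transposons. It read 203, 71.9 and 194 in control, 212, 244 and 395 in D1 and 578, 1407 and 447 in WK2. Each step of the order control, D1, WK2 was without overlap, but both were narrow. The highest control read 203 beside 212 for the lowest D1 array, and the nearest D1 and WK2 arrays were 0.16 apart on the log2 scale. WK2 was 3.92-fold above control (1.97 ± 0.42) and 2.37-fold above D1 (1.24 ± 0.42). Without WK2 replicate 2, the highest array, the difference from D1 was 0.78, and with a pseudocount of 500 the differences were 0.93 and 0.68.

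Cgref1, which encodes a secreted protein with EF-hand motifs named for its effect on cell growth, lay lower in D1 than in control and higher in WK2. It read 2751, 2424 and 2555 in control, 1292, 1615 and 1807 in D1 and 4832, 3239 and 4710 in WK2. The D1 arrays lay below the controls and the WK2 arrays above them, with no overlap between any groups. WK2 was 1.62-fold above control (0.69 ± 0.19) and 2.64-fold above D1 (1.40 ± 0.19).

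**Figure D3:**
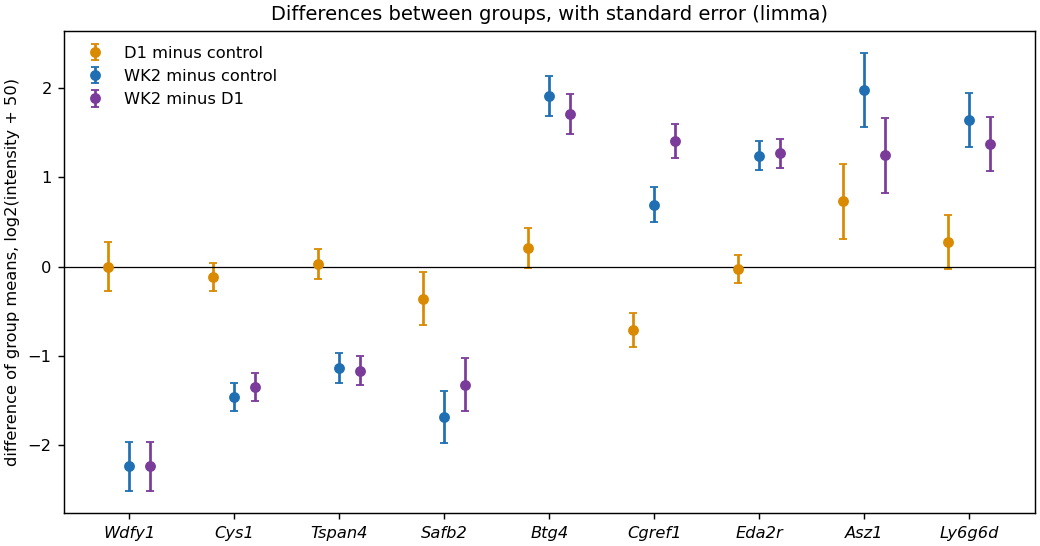
Difference of group means in log2(intensity + 50) for each gene (vertical axis), for D1 minus control, WK2 minus control and WK2 minus D1; bars are the standard error of the limma fit over 9 arrays. For 8 genes WK2 differs from control by at least 1.13 in size, while Cgref1 differs by 0.69 from control and by 1.40 from D1.

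D1 against control addresses the same genes after a single day of dexamethasone. It did not choose them, but it is not fully independent of the choice, since a gene apart from both groups in WK2 tends to have them close together. Of the 9 genes, 5 lay below control in D1 and 4 above, and 0 passed the limma test (adjusted p = 1.00 for each), as did 0% of all features, with 473 features and 1 of the 9 genes at an unadjusted p under 0.05. That gene was Cgref1, at -0.71 ± 0.19 (unadjusted p = 0.00421, limma). Asz1 differed by 0.73 ± 0.42, Safb2 by -0.36 ± 0.30, Ly6g6d by 0.27 ± 0.30 and Btg4 by 0.21 ± 0.22. Single arrays moved these by over 1.5 times: Asz1 lay at 0.39 without control replicate 2, Safb2 at -0.63 without D1 replicate 3 and -0.20 without D1 replicate 1, and Ly6g6d at 0.0265 and 0.66 without the same arrays. Without D1 replicate 2 Ly6g6d lay at 0.13 and Btg4 at 0.0624, and Btg4 lay at 0.39 and 0.0823 without control replicate 1 or 2. Cys1 differed by -0.12 ± 0.16, Tspan4 by 0.03 ± 0.17, Eda2r by -0.03 ± 0.16 and Wdfy1 by less than 0.01 in size (SE 0.28). The groups did not overlap for 2 of the 9, Cgref1 and Asz1, against 10.1% of all features. For Asz1 the nearest arrays read 203 in control and 212 in D1. The median size of the difference was 0.21 for the 9 genes and 0.13 for all features. A p that misses the threshold does not show that the levels were equal.

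The 9 genes did not all vary alike between arrays of the same group. When each group's mean was taken out, the log2 levels of Wdfy1 and Cys1 correlated at r = 0.95 over the 9 arrays, with 0.92 to 0.97 when any array was left out. Btg4 correlated with them at r = -0.79 and -0.78. Tspan4 and Cgref1, which lay on opposite sides in WK2, correlated at 0.85, while Eda2r and Asz1, which both lay higher, correlated at -0.84. Over the 16 pairs that lay on the same side the median r was 0.21, with 11 pairs above 0, and over the 20 pairs on opposite sides it was 0.08, also with 11 pairs above 0. These values describe 9 arrays that share their scaling and labelling.

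For each gene the 3 named genes with the most similar profile over the 9 arrays were taken from 17140 candidates, by Pearson's r of the log2 levels. The similarity includes both the difference between WK2 and the rest and the deviations within groups, so correlations of either kind tend to be high by choice. The genes most like Wdfy1 were Tef (r = 0.994), a clock-controlled transcription factor, Wnt4 (0.983), a secreted Wnt ligand, and Ddx17 (0.978), an RNA helicase. Tef and Wnt4 were also the top matches of Cys1 (0.990 and 0.987), and Per2, a period gene of the circadian clock, was that of Tspan4 (0.968). Zbtb20 was also among the 3 matches of Cys1 (0.9775) and of Tspan4 (0.965), and Tef among those of Tspan4 (0.960). Tef read 12012, 16682 and 14723 in control, 13960, 13935 and 16848 in D1 and 5111, 5087 and 3711 in WK2. With group means taken out, Tef correlated with Wdfy1 at 0.95, with Cys1 at 0.89 and with Tspan4 at 0.34, values that the same choice affects.

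Other genes had other companions. Those of Btg4 were Krt14 (r = 0.982), a keratin of basal epithelial cells, Gmps (0.976) and Ccdc25 (0.972). Krt14 read 16034 to 17906 in control, 15437 to 17667 in D1 and 23724 to 31196 in WK2, and the summed intensity of 3 basal cell markers was 24672 to 25522 in control, 23627 to 29144 in D1 and 36401 to 40556 in WK2. Krt14 carried most of that sum and was the 1 of 3 basal markers that lay above all other arrays in WK2. Krt5 overlapped, and Trp63 lay at -0.09 ± 0.14, with 0.67 and -0.32 on its dimmer probes. Their part in the level of Btg4 was not tested.

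The profile of Cgref1, with its low point in D1, was closest to Aspn (r = 0.969), Car3 (0.955) and Col5a2 (0.943), of which Aspn encodes an extracellular matrix proteoglycan and Col5a2 a fibrillar collagen chain. Aspn read 4178 to 5526 in control, 2767 to 3774 in D1 and 5158 to 8835 in WK2. The summed intensity of 6 bone and cartilage markers was 155060 to 165291 in control, 86101 to 92740 in D1 and 115692 to 263349 in WK2, a sum carried mainly by Ibsp and Ctsk. In D1 0 of the 6 markers had a mean log2 level above control. Dmp1 was lower still in WK2, with means of 4753, 3447 and 1584 in control, D1 and WK2. Col2a1 had means of 5327, 2255 and 1196, but its control arrays read 1795, 12051 and 2136. Its control mean thus rests on replicate 2, and its groups overlapped. In WK2 against control Col2a1 did not pass (adjusted p = 0.123, limma). Dmp1 passed in WK2 against control (-1.53 ± 0.23, adjusted p = 0.0352, limma), a call that ended when any array except control replicate 2 or WK2 replicate 1 was left out (adjusted p up to 0.148, limma). Their part in the level of Cgref1 was not tested.

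Asz1 varied with Opn1mw (r = 0.996), Scgb2b24 (0.995) and Disp3 (0.995), all highest in WK2 replicate 2 and lowest in control replicate 2. With group means taken out these were at 0.99, 0.99 and 0.98, which the choice by r over the same arrays also favours. The matches of Ly6g6d were Grb10 (0.984), Gmppb (0.978) and Fkbp11 (0.975). Those of Safb2 were Pak6 (0.993), Spns2 (0.989) and Tle1 (0.988), and those of Eda2r were Abat (0.979), Aspm (0.968) and Klhl11 (0.963).

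**Figure D4:**
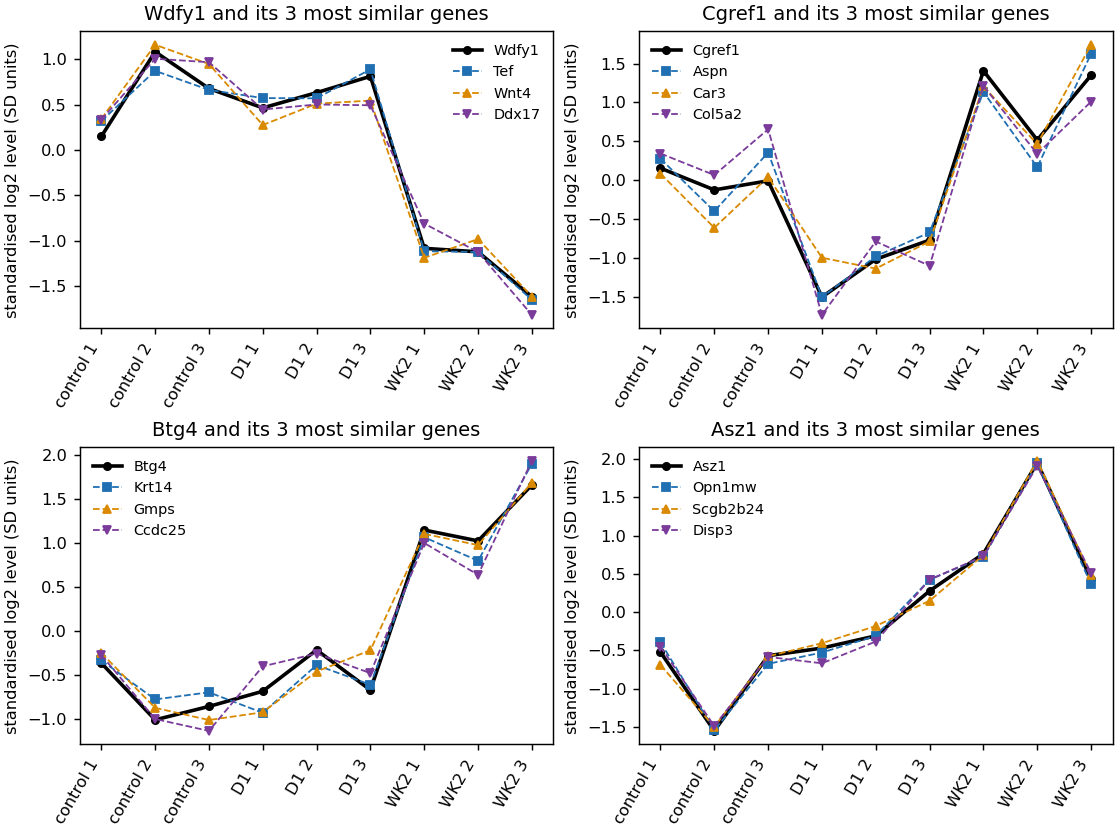
Log2 level of Wdfy1, Cgref1, Btg4 and Asz1 (black) and of the 3 genes most similar to each (dashed), standardised to mean 0 and SD 1 over the 9 arrays (vertical axis), by array. Wdfy1 follows Tef at r = 0.994, Cgref1 and its companions are lowest in D1, and Asz1 and its companions peak in WK2 replicate 2; lines join arrays of 1 gene only to guide the eye.

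Neighbouring genes on the chromosome were read beside the 9 genes. The nearest measured protein-coding genes on either side came to 18. The WK2 arrays lay outside all others for 5 of them, beside 21.8% of all features. In limma 0 passed for WK2 against D1 (0.0931% of all features) or D1 against control (0%). For WK2 against control 1 of the 18 passed, beside 1.61% of all features. That gene was Hoatz, a motile cilia gene that overlaps Btg4 on chromosome 9, at 51081310 to 51105834 beside 51102147 to 51119924 for Btg4 (GRCm38.p6), on the opposite strand. Hoatz read 5833, 7263 and 5000 in control, 7213, 9178 and 5486 in D1 and 11478, 17234 and 21745 in WK2. It rose 2.71-fold (1.44 ± 0.27, adjusted p = 0.0422, limma), and its difference from D1 was 1.18 ± 0.27 (adjusted p = 0.123, limma). The call ended when any array except WK2 replicate 1 was left out (adjusted p up to 0.148, limma). Of the 5 ciliated cell markers, 1 (Ccdc39) lay above all other arrays in WK2, 4 lay above control by group mean and Foxj1 lay at -0.48 ± 0.26. Their part in the level of Hoatz was not tested. The probe sequences were not used here, so a Btg4 signal from the shared stretch cannot be told apart from Hoatz.

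Safb2 lies head to head with its paralogue Safb on chromosome 17, with the spans of the genes 307 bases apart. The 250 bases before an annotated start of each gene share 104 bases, in capitals in the window of Safb2. That start of Safb2 lies inside the gene's span, which ends at 56584675, so part of the window lies within the gene. The window is shown because both genes lay lower in WK2.
Safb2, chr17:56584586-56584835, minus strand: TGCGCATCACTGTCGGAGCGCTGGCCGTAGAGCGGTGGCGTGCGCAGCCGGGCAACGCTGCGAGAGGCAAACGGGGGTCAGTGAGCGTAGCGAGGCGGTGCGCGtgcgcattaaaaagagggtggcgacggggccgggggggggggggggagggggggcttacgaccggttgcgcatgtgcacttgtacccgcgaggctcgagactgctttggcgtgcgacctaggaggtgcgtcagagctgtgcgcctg
Safb read 22412, 32788 and 32287 in control, 25157, 25199 and 22666 in D1 and 16196, 18063 and 10136 in WK2. All WK2 arrays lay below the others, as for Safb2, by a smaller difference of -0.997 ± 0.23 that did not pass the test (adjusted p = 0.0568, limma). It passed in 3 of 20 alternatives. Sltm, the third member of the family, differed by -0.05 ± 0.15 (adjusted p = 0.848, limma).

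The neighbours of Ly6g6d are relatives too. Ly6g6e, within its span, read 2481 to 2960 in control, 2829 to 3006 in D1 and 2771 to 3329 in WK2, which overlap (0.13 ± 0.14, adjusted p = 0.522, limma). Ly6g6c, 1294 bases away, differed by 0.69 ± 0.28 (adjusted p = 0.14, limma) with overlap between WK2 and D1, and Ly6g6f by 0.51 ± 0.25 (adjusted p = 0.197, limma). At Tspan4, Polr2l, 83 bases away, lay at -0.81 ± 0.21 (adjusted p = 0.0629, limma). Chid1, which overlaps the span of Tspan4, lay at 0.35 ± 0.17 (adjusted p = 0.195, limma) with all WK2 arrays above the others. Near Cgref1, Preb lay at -0.75 ± 0.17 (adjusted p = 0.0551, limma) and Khk at 0.26 ± 0.15 (adjusted p = 0.254, limma). The neighbours of Wdfy1, Ap1s3 and Mrpl44, lay at 0.25 and 0.01.

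**Figure D5:**
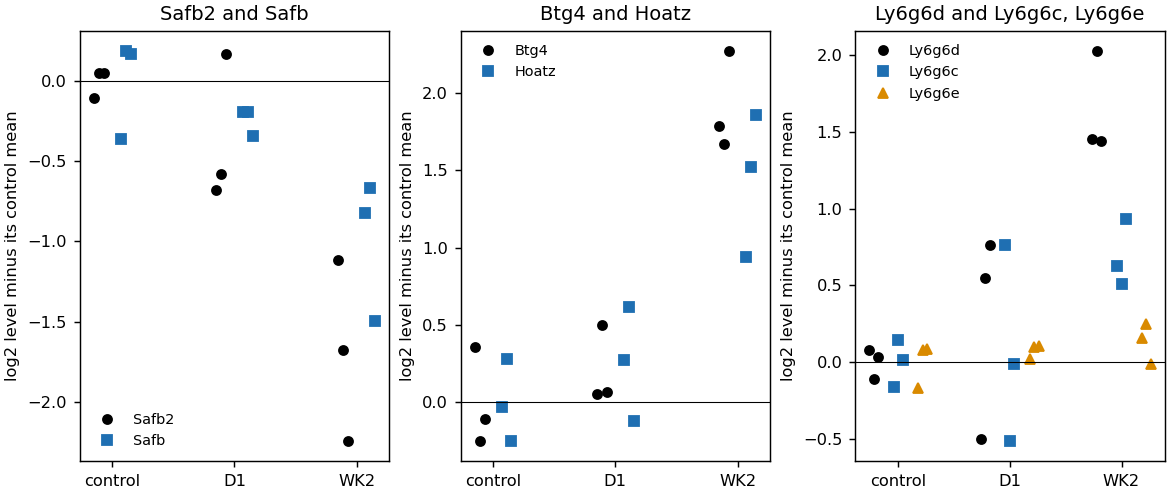
Log2 level minus the gene's own control mean (vertical axis) on each array, by group, for Safb2 with Safb, Btg4 with Hoatz and Ly6g6d with Ly6g6c and Ly6g6e. Safb and Hoatz lie on the same side as their neighbour in WK2, by -0.997 and 1.44 on average, while Ly6g6e lies 0.13 above its control mean on average.

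Relatives and pathway partners of the 9 genes were listed together with glucocorticoid receptor targets and genes that differ between C57BL/6 substrains. These 14 lists held 174 genes, of which 155 had a named probe, and all are called related genes below. The list of glucocorticoid receptor targets also holds the receptor gene, Nr3c1. In WK2 against control 1 rose and 3 fell, which is 2.58% beside 1.61% of all features, and 0 passed against D1 or in D1 against control. Of these calls 1 higher and 1 lower came from the list of glucocorticoid receptor targets, so the share is not that of relatives and partners alone. The median difference of the 155 in WK2 against control was 0.04, beside 0.14 for all features. The WK2 arrays lay outside all others for 16 genes above and 17 below, or 21.3%, beside 21.8% of all features. The genes that passed were Cnot3, Sesn2 and, among 10 glucocorticoid receptor targets, Zbtb16, a transcriptional repressor (5.41-fold lower, adjusted p = 0.0349, limma), and Mt1, a metallothionein (1.58-fold higher, adjusted p = 0.0499, limma). Fkbp5, a co-chaperone of the receptor, lay at -1.29 ± 0.29 without passing (adjusted p = 0.0551, limma). The 10 genes of the target list were mixed in direction, with 6 above control and a median of 0.12. Each of the 4 calls ended when any array except WK2 replicate 1 was left out, or, for Zbtb16, any except WK2 replicate 1 and D1 replicate 1 (adjusted p up to 0.148, limma). Over the other alternatives the adjusted p reached 0.592 for Mt1 (limma).

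For Btg4, the other 4 BTG/TOB genes measured had 0 past the test, and Btg3 had no named probe. Btg1 lay at -0.26 ± 0.17, Btg2 at 0.54 ± 0.26, Tob1 at -0.19 ± 0.33 and Tob2 at -0.49 ± 0.33. Of 12 deadenylase genes 1 fell. Cnot3, a subunit of the CCR4-NOT complex, read 3261, 4633 and 3884 in control, 2867, 2921 and 3457 in D1 and 1576, 2000 and 1186 in WK2, a fall of 2.46-fold (-1.30 ± 0.21, adjusted p = 0.0398, limma). Pan2 lay at -0.92 ± 0.25 (adjusted p = 0.0653, limma) and Pan3 at -0.49 ± 0.18 (adjusted p = 0.12, limma). Of 11 oocyte genes 0 passed, with a median of 0.21. Zp1, a zona pellucida protein, lay at 0.72 ± 0.26 and the oocyte transcription factors Nobox and Figla at 0.46 ± 0.17 and 0.39 ± 0.17.

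For Asz1, 0 of 16 piRNA pathway genes passed, with a median of 0.07. Piwil2, a PIWI protein, was bright and lay lower, at 42456, 46961 and 51813 in control and 30576, 29748 and 21181 in WK2 (-0.81 ± 0.18, adjusted p = 0.0551, limma). Gtsf1 lay at 0.52 ± 0.19 and Pld6 at 0.56 ± 0.22 without passing. The list was thus mixed, with 10 of 16 members above control.

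For Eda2r, 0 of 7 genes of ectodysplasin signalling passed. Edar, the receptor for the A1 form, lay at 1.29 ± 0.49 (adjusted p = 0.12, limma) at intensities of only 52.1 to 156 in control and 231 to 519 in WK2, Traf2, a signalling adaptor, at -0.48 ± 0.18 and Eda, the ligand gene, at -0.20 ± 0.17. Of 16 p53 targets, 1 fell and 0 rose, with a median of 0.09 and 9 of 16 above control. Sesn2, a stress-induced regulator of TORC1, fell 1.72-fold (-0.78 ± 0.16, adjusted p = 0.0489, limma), while Plk2 lay at -0.55 ± 0.16 and Ccng1 at 0.57 ± 0.20. The widely used p53 targets Cdkn1a and Mdm2, lay at -0.02 ± 0.18 and 0.04 ± 0.20. Fas, a death receptor, lay at 1.62 ± 0.57 (adjusted p = 0.106, limma) with overlap between WK2 and D1, and Perp at 0.61 ± 0.22 (adjusted p = 0.109, limma) with all WK2 arrays above the others. In the other direction, Bbc3 lay at -0.85 ± 0.32 (adjusted p = 0.122, limma), with 0.21 on its dimmer probe, and Zmat3 at -0.74 ± 0.34. Phlda3 lay at -0.39 ± 0.15 (adjusted p = 0.12, limma) with all WK2 arrays below the others. The p53 targets named from Cdkn1a to Phlda3 were chosen after their values were seen.

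For Wdfy1, 0 of 11 genes of its family and of TLR3 and TLR4 adaptor signalling passed. Wdfy3, known for its role in selective autophagy, lay at -0.89 ± 0.27 (adjusted p = 0.0786, limma), with -0.54 and -0.51 on its other probes, Wdfy4 at -0.63 ± 0.29 and Wdfy2 at -0.40 ± 0.23. The adaptor gene Ticam2 lay at 1.12 ± 0.26 (adjusted p = 0.0551, limma), with only 0.17 on its dimmer probe. Tlr3 lay at 0.77 ± 0.23 (adjusted p = 0.0789, limma).

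For Cys1, 0 of 14 cystic kidney and primary cilium genes passed, with 6 above and a median of -0.11. Anks6 lay at -0.86 ± 0.18 (adjusted p = 0.0514, limma), Pkd1 at -0.82 ± 0.18 (adjusted p = 0.0522, limma) and Pkhd1 at 1.05 ± 0.31 (adjusted p = 0.0779, limma). For Tspan4, 0 of 29 other tetraspanin genes passed, with 16 above control and a median of 0.03. Tspan5 lay at -0.70 ± 0.19 (adjusted p = 0.0669, limma) and Tspan11 at -0.44 ± 0.16. Cd63 lay at 0.59 ± 0.19, with 0.17 on its dimmer probe. For Ly6g6d, 0 of 21 LY6/uPAR genes passed, with a median of 0.18. Slurp1, a secreted family member, lay at 0.57 ± 0.16 (adjusted p = 0.0685, limma), Ly6g5b at -0.52 ± 0.18 and Ly6i at 0.44 ± 0.17. Mcfd2, an EF-hand relative of Cgref1, lay at 0.53 ± 0.19 (adjusted p = 0.112, limma).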

How the data were processed

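Total RNA was extracted with Trizol, amplified and labelled with Cy5, per the labels' protocols. How the scans were corrected and normalized is not given in the sources used here. What the authors deposited is a single matrix of intensity values on a linear scale, with 8 to 18 probes per array below 0 and all values within 0.05 of a whole number of steps; the target of that scaling is unknown. No detection calls, batches or dates were used here. Gene symbols came from GEO's annotation of the platform and were brought up to date with RefSeq (GRCm38.p6) by gene ID: 21876 probes had 1 gene symbol, 0 several and 4547 none. A gene's brightest probe by the mean of 9 arrays stood for it, which with unnamed probes gave 23631 features. Values were tested as log2(intensity + 50) with limma 3.58.1 in R 4.3.3, 1 model over the 9 arrays, Benjamini-Hochberg adjustment over all features within each comparison, called at an adjusted p under 0.05. The fit was tested on simulated data. An exact permutation test of 3 against 3 cannot give a p under 0.1, so none was run. The number of arrays limits the precision. The 9 genes and all lists were chosen with earlier results of these data known. Named are the 9 genes, their nearest neighbours, their 3 most similar genes (chemoreceptors, predicted genes and immune receptor segments left out) and, from each list, fixed relatives, calls and the 3 genes of smallest p in WK2 against control. Alternatives changed normalization, filter, probe rule, pseudocount, moderation, block, arrays in the fit and left out each array.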

Additional observations from a re-analysis of the deposited data

How the results depend on the processing

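For WK2 against control the 380 features and 4 related genes called became 1419 and 12 under quantile normalization, 1545 and 12 under median centring, and 682 features under cyclic loess. They became 576 and 9 without the dimmest 25% of features, 1135 and 10 without the dimmest 50%, 777 and 7 with a pseudocount of 500, 131 and 2 with a pseudocount of 16, and 0 and 0 in a limma fit of the groups compared alone, where 5782 features had an unadjusted p under 0.05. Trend and robust moderation called 2 related genes. Leaving out 1 array gave 1 to 953 features and 0 to 10 related genes: 9, 37 and 2 features without control replicate 1, 2 or 3, 15, 22 and 14 without those of D1, and 953, 1 and 4 without those of WK2. For WK2 against D1 the 22 features became 75 under quantile normalization, 50 under median centring, 53 under cyclic loess, 36 without the dimmest 25%, 13 with a pseudocount of 500 and 2 in the fit of the groups compared, and 1 to 27 with an array left out: 10, 27 and 6 without control replicate 1, 2 or 3, 1, 2 and 1 without those of D1, and 6, 10 and 4 without those of WK2. For D1 against control leaving out 1 array called 0 to 1 feature, and none of the 9 genes tested was called under the 20 alternatives, of which the one without the dimmest 50% tested 7 of them. The same replicate numbers do not pair arrays across groups by their deviations from the group means (r -0.28 to 0.14). With the replicate number as a block, WK2 against control called 1 feature and 0 related genes and WK2 against D1 called 8 features. The cause of these changes was not tested. Differences between D1 and control that were near 0 turned sign: Wdfy1 to 0.0366 under quantile normalization and 0.0405 under cyclic loess, Eda2r to 0.0082 and 0.0104, and Tspan4 to -0.0212 under median centring. With 1 array left out they ran from -0.29 to 0.26 for Wdfy1, -0.22 to 0.0091 for Cys1, -0.0726 to 0.14 for Tspan4 and -0.11 to 0.0773 for Eda2r. Asz1, the dimmest of the 9 genes, had the largest standard error among them.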
